A study of Schizosaccharomyces pombe with 14 samples.

Results

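The genes described here are protein-coding genes of fission yeast, Schizosaccharomyces pombe, that lie just downstream of another protein-coding gene read in the same direction. A gene was taken when it had fewer than 5 exons and when its nearest upstream neighbour of any class was a protein-coding gene on the same strand that ended 0 to 300 bp before it. By this rule 728 genes were members, of 4839 protein-coding genes with fewer than 5 exons and of 7049 genes in the table. The rule uses positions only and no measured level. The members were set against 405 genes of the same kind whose nearest upstream neighbour was more than 1000 bp away, and against 481 divergent genes, whose nearest upstream neighbour was protein-coding, at 0 to 300 bp, and on the opposite strand. Fragments per gene were counted in 14 RNA-seq libraries of ribosomal RNA-depleted total RNA.

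In the anchor-away experiment, Pac1-AA cells (Pac1-FRB-GFP::natMX6) and control (CTL) cells with untagged Pac1 were compared, with 2 libraries each. Both strains carried torSE::KanMX6, fkh1::URA+, the rpl13-2FKBP12 anchor under the nmt1 promoter, ura4-D18, leu1-32 and ade6-M210. Both were given rapamycin at 2.5 µg/ml for 2 h, which moves the tagged Pac1 out of the nucleus. In the second experiment, 2 pac1-ts clones with a point mutation in pac1 were compared with wild-type (WT) cells of the same background (ade6M210 leu1-32 ura4-D18 his3-D1). Cells were taken at 30°C and from cultures moved to 37°C for 2 h, with 1 WT library at each temperature. In the exonuclease experiment, strains labelled Pnmt81-dis3, Pnmt81-dhp1 and Pnmt81-dhp1 Pnmt81-dis3, in which the thiamine-repressed nmt81 promoter drives the named genes, and WT were kept in medium with 60 µM thiamine, and each gave 1 library. All 4 carried leu1-32, ura4-D18 and his3-D1. WT was h+ with ade6-M216 and the strain labelled Pnmt81-dhp1 was h- with ade6-M210, and for the other two the labels leave the mating type and the ade6 allele unclear.

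When RNA polymerase II passes the end of a gene, the transcript is cleaved and polyadenylated, and the RNA still being made is degraded from its new end by the exonuclease Dhp1 (Xrn2 in human), which helps to release the polymerase. Pac1, the RNase III of fission yeast, cuts double-stranded hairpins and can give an alternative entry site to exonucleases. The nuclear exosome, with its catalytic subunit Dis3, degrades RNA from the opposite end. Where release fails, the polymerase can run on into the next gene, and in a tandem pair the readthrough RNA has the sense of the downstream gene and would be counted on it. In a divergent pair the upstream transcript runs the other way. The question put to the data was whether the members rose in Pac1-AA, pac1-ts and exonuclease libraries, and whether they did so more often than genes with a distant neighbour.

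The DNA between the genes of such pairs was short and rich in A and T. The gap had a median of 149 bp in the annotation of the count table (ASM294v2), with 210 members at up to 100 bp, 306 at above 100 and up to 200 bp, and 212 above 200 bp. Just inside the limit lay dma1 at 300 bp and pop8 and fmn1 at 299 bp, and just outside it lay rpc2 and mil1 at 301 bp. RefSeq, on ASM294v3, draws gene ends differently. Of 725 members with both spans there, 586 had a gap of 0 to 300 bp, 125 had a larger gap and 14 overlapped their neighbour. The spacers below are the RefSeq ones, printed 5′ to 3′ on the strand of the downstream gene, with AATAAA in capitals. AATAAA is the canonical polyadenylation signal.

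The first 3 spacers belong to pairs whose upstream gene was higher in a pac1 mutant, and the last 2 belong to members that were much higher in the library labelled Pnmt81-dis3. They lie at chrII:4133636-4133658, forward strand (between abp2 and naa35), chrI:3843137-3843335, forward strand (SPAC4H3.08 and SPAC4H3.09), chrI:2800407-2800576, reverse strand (SPAC1805.16c and pub2), chrI:1622888-1622909, reverse strand (rib1 and meu32) and chrI:1753686-1753773, reverse strand (dbr1 and rec25).
naa35: cttacagagtaacacttttcatt
SPAC4H3.09: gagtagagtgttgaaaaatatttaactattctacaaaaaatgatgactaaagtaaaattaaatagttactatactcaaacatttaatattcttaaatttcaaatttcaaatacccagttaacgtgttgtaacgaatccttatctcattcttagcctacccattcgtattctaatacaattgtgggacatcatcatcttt
pub2: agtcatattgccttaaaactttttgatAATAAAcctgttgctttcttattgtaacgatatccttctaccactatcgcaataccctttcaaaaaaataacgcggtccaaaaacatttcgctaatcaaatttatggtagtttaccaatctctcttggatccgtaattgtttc
meu32: atccaaagaAATAAAgcaaacc
rec25: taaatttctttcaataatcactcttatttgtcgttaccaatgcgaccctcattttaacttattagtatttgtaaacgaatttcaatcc

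Of these 5 spacers, pub2 and meu32 hold AATAAA on the strand shown, and none holds it on the other strand. The abp2 to naa35 spacer is 23 bases long and that of rib1 to meu32 is 22 bases, so in these pairs the downstream gene begins almost where the upstream one ends. Over the 614 members with a usable RefSeq spacer, 351 (57.2%) held AATAAA on either strand and 179 held it on the strand of the genes. The median AT content was 69.3%. In the 250 bases before the gene start, AATAAA on either strand was found for 66.3% of members, 54.2% of divergent genes, 59.4% of genes with a gap over 1000 bp and 60.0% of all protein-coding genes. On the strand of the gene the shares were 36.8%, 32.3%, 33.1% and 34.3% in the same order. On the opposite strand they were 48.5%, 29.6%, 40.4% and 39.6%. AT content in the same windows averaged 69.5% for members, 66.5% for divergent genes, 67.1% for distant genes and 67.5% for all protein-coding genes, and whether it accounts for the motif shares was not tested. A match is a description of the sequence and not a site in use.

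The members were spread over the genome, with 338 on chromosome I, 266 on chromosome II and 124 on chromosome III, and 351 lay on the forward strand against 377 on the reverse strand. For 127 of them the upstream gene was itself a member, so these pairs share a gene. They had a median length of 1722 bases, and 49.7% had 1 exon, against 65.4% of the distant genes and 47.4% of the divergent genes. Ribosomal protein genes made up 19 of the members, 23 of the divergent genes and 4 of the distant genes. In length-corrected units the members were well expressed, with a median between 33.1 and 51.0 FPKM (fragments scaled to gene length and library size) in every library, and no more than 2 of them had 0 counts in any library. The share of all protein-coding fragments that fell on members was 10.7% in both Pac1-AA libraries and 10.7% and 10.6% in CTL, 11.7% and 11.8% in pac1-ts against 11.6% in WT at 30°C, and 12.1% in both pac1-ts libraries against 11.9% in WT at 37°C. In the exonuclease experiment it was 14.8%, 13.2% and 14.2% in the libraries labelled Pnmt81-dis3, Pnmt81-dhp1 and Pnmt81-dhp1 Pnmt81-dis3, against 13.0% in WT.

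Depth ranged from 15997568 to 53258725 fragments on genes in the Pac1 experiments and from 6836270 to 9470347 in the exonuclease experiment. Values per library are given as CPM, counts scaled to library size, after TMM normalization within each experiment. The targeted genes did not all follow the labels. The dhp1 RNA stood at 408 CPM in the library labelled Pnmt81-dis3, 114 in that labelled Pnmt81-dhp1 and 382 in that labelled with both, against 180.0 in WT. The dis3 RNA stood at 169, 114 and 255 CPM in the same 3 libraries, against 202 in WT. Neither gene was lowered in the library labelled with both, and these libraries are therefore named only by their labels. The pac1 RNA does not test the protein's position: it was 157 and 154 CPM in Pac1-AA against 97.0 and 94.2 in CTL, 124 and 121 in pac1-ts against 248 in WT at 30°C, and 85.8 and 77.2 in pac1-ts against 69.0 in WT at 37°C. In the clones 14.7% to 17.6% of fragments lay on ribosomal RNA genes, against 11.3% and 11.4% in WT, and the part of this in the results was not tested.

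As a class the members were not higher in Pac1-AA. Their median change was −0.014 on the log2 scale (Pac1-AA over CTL), beside −0.0095 for divergent genes, 0.0027 for genes with a gap over 1000 bp and 0.0046 for all genes tested. All members tested lay between −0.77 and 0.63, so that in edgeR's test 0 of 726 passed a log2 change of 1 at an unadjusted p below 0.05 or at any other p, and DESeq2 called 0 as well. The background at that change and an adjusted p below 0.01 was 0.616% of 6328 genes higher and 0.221% lower, and 4 of 379 distant genes were higher and 1 lower. This background, like those below, includes noncoding genes, and of protein-coding genes alone 0.397% were higher and 0.278% lower. Without the condition on size, at an adjusted p below 0.01 alone, 18 of 726 members (2.48%) were called higher and 49 (6.75%) lower. The background for these calls was 4.55% higher and 7.46% lower, and among protein-coding genes alone 4.09% were called higher and 9.02% lower. Among divergent genes 1.71% were called higher and 8.96% lower, and among distant genes 7.65% were called higher and 9.5% lower. The share of members called higher was thus below the background and below the share of distant genes and above that of divergent genes. No test compared the classes, since genes are not replicates.

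The counts moved with the libraries used. Left out in turn, CTL replicates 1 and 2 and Pac1-AA replicates 1 and 2 gave 30, 27, 8 and 8 members called higher and 67, 64, 30 and 28 called lower. With library totals in place of TMM factors the median of all genes moved to 0.11, and 18.3% of members were called higher and 3.86% lower, against 17.8% and 4.63% of all genes and 23.5% and 4.49% of distant genes. With each library left out, the shares of all genes called higher and lower moved in the same direction as those of the members. In each of these settings the share called higher was smaller for members than for distant genes. A fragment on a member is not told apart by origin: the counts do not separate the gene's own transcript from a readthrough RNA, nor fewer cells with a transcript from less RNA per cell. A fragment that spans both genes of a pair is counted on neither.

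**Figure D1:**
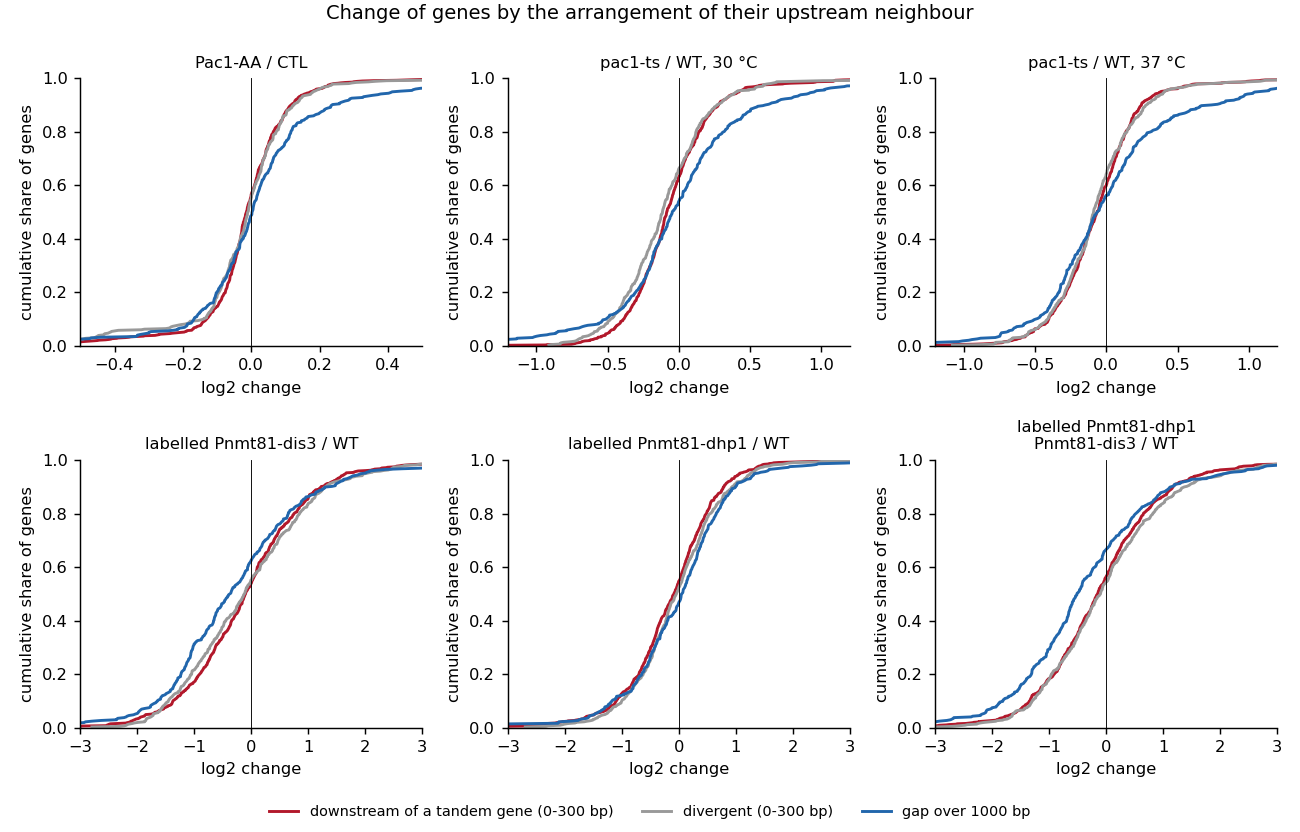
Cumulative share of genes (y axis) up to a given log2 change (x axis) in 6 comparisons, mutant or labelled library over its control, for genes downstream of a tandem gene, divergent genes and genes with a gap over 1000 bp. The curve of the tandem genes lies close to that of the divergent genes in the 3 Pac1 panels, with medians of −0.014, −0.085 and −0.064 for tandem genes and −0.0095, −0.11 and −0.089 for divergent genes.

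In pac1-ts cells a few members rose clearly, while the median member was slightly below WT. The median change over WT was −0.085 for members, −0.11 for divergent genes, −0.045 for distant genes and −0.0055 for all genes tested at 30°C. At 37°C these medians were −0.064, −0.089, −0.062 and 0.0043. At a log2 change above 1, 5 of 727 members were called higher and 1 lower at 30°C, against a background of 1.62% higher and 0.788% lower. At 37°C, 5 members were called higher and 3 lower, against a background of 2.26% and 0.595%. These counts are 0.688% of members called higher at each temperature, beside 3.05% of distant genes at 30°C and 3.56% at 37°C. Of protein-coding genes alone, 1.16% were called higher and 0.766% lower at 30°C, and 1.53% and 0.707% at 37°C. Without pac1-ts replicate 2 at 37°C, 3 members were called higher at 37°C, and without pac1-ts replicate 1 at 37°C, 5 were called lower.

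Without the condition on size, 13 members (1.79%) were called higher and 35 (4.81%) lower at 30°C, against a background of 3.63% and 6.30%. At 37°C, 18 members (2.48%) were called higher and 54 (7.43%) lower, against a background of 5.80% and 6.29%. Distant genes were called higher in 5.6% of cases at 30°C and 7.63% at 37°C, and divergent genes in 1.88% and 2.3%. The 2 clones were sequenced at both temperatures, and with the clone as a block the calls became more numerous in all classes: 42 members (5.78%) were higher and 107 lower at 30°C, and 45 (6.19%) were higher and 106 lower at 37°C, beside 13.5% and 15.0% of distant genes called higher. Leaving out pac1-ts libraries in the order 30°C replicate 1, 30°C replicate 2, 37°C replicate 1 and 37°C replicate 2 gave 15, 16, 37 and 41 members higher at 30°C and 30, 31, 25 and 29 at 37°C. In the same order it gave 65, 28, 97 and 100 members lower at 30°C and 88, 85, 128 and 88 lower at 37°C. In each of these settings the shares of all genes called moved in the same direction as those of the members, so the shifts are not particular to the members. With only 1 WT library at each temperature, the spread in this test comes from the clones and is taken to hold for WT.

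**Figure D2:**
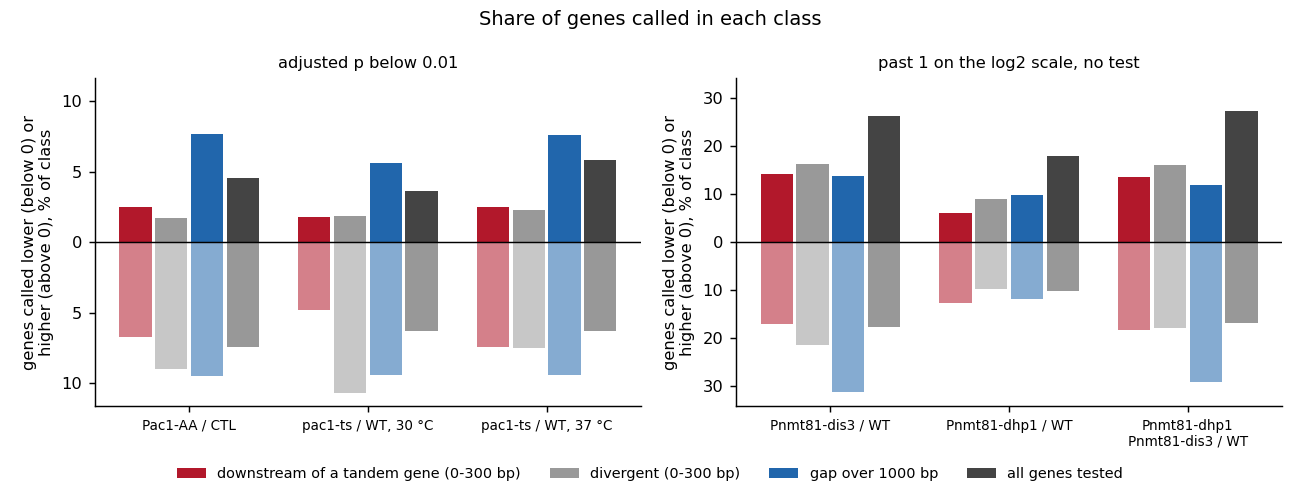
Percent of each class called higher (bars above 0) or lower (bars below 0), at an adjusted p below 0.01 for the Pac1 comparisons (left) and past 1 on the log2 scale without a test for the exonuclease libraries (right). Tandem genes were called higher in 2.48%, 1.79% and 2.48% of cases in the left panel, beside 7.65%, 5.6% and 7.63% of distant genes.

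Tandem pairs whose upstream gene rose were looked at next. In Pac1-AA, 21 of 715 measured pairs had an upstream gene called higher. Of the 21 downstream members, 0 were called higher and 4 lower by edgeR, beside 4.55% and 7.46% of all genes, and 3 were higher and 6 lower at an unadjusted p below 0.05. DESeq2 had 18 such pairs, with 0 members called higher and 3 lower. In pac1-ts at 30°C, 12 upstream genes were called higher, and 0 of their downstream members were called higher and 1 lower (1 higher and 5 lower at an unadjusted p below 0.05, and 0 and 1 called by DESeq2 in its 12 pairs). At 37°C there were 17 such pairs, with 0 members called higher and 1 lower (0 and 4 at an unadjusted p below 0.05, and 0 and 0 called by DESeq2 in its 15 pairs). Over all genes 3.63% were called higher at 30°C and 5.80% at 37°C, so at the background share about 1 member or none would be called higher in so few pairs, and a count of 0 does not set these members apart. Divergent pairs gave 0 of 7 genes called higher in Pac1-AA, 0 of 9 at 30°C and 2 of 13 at 37°C where their neighbour was higher. Here and in later counts a divergent pair can enter from both sides, since each of its genes can be the other's upstream neighbour. The median change of the downstream members in the tandem pairs was −0.0033 in Pac1-AA, −0.12 at 30°C and −0.15 at 37°C.

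Under the clone block, 40 upstream genes were higher at 30°C and 63 at 37°C. Among their downstream members, 2 were then called higher at 30°C (SPAC4H3.09 and hta2) and 9 lower, and 1 was called higher at 37°C (SPBC725.03) and 14 lower. Under this block 8.83% of all genes were called higher and 14.8% lower at 30°C, and 11.3% and 13.3% at 37°C. Leaving out CTL replicate 1 or CTL replicate 2 gave 1 downstream member called higher in Pac1-AA, vps901 without replicate 1 and pub2 without replicate 2. With library totals alone, under which the median of all genes is shifted, 142 upstream genes and 30 of their downstream members were called higher in Pac1-AA. In that setting 17.8% of all genes and 18.3% of members were called higher. Without pac1-ts 30°C replicate 1, SPAC2H10.01 was called higher together with its upstream gene, and without either 37°C replicate, hta2 was so called at 30°C. These genes are named because the counts are small and were not chosen by the rule.

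**Figure D3:**
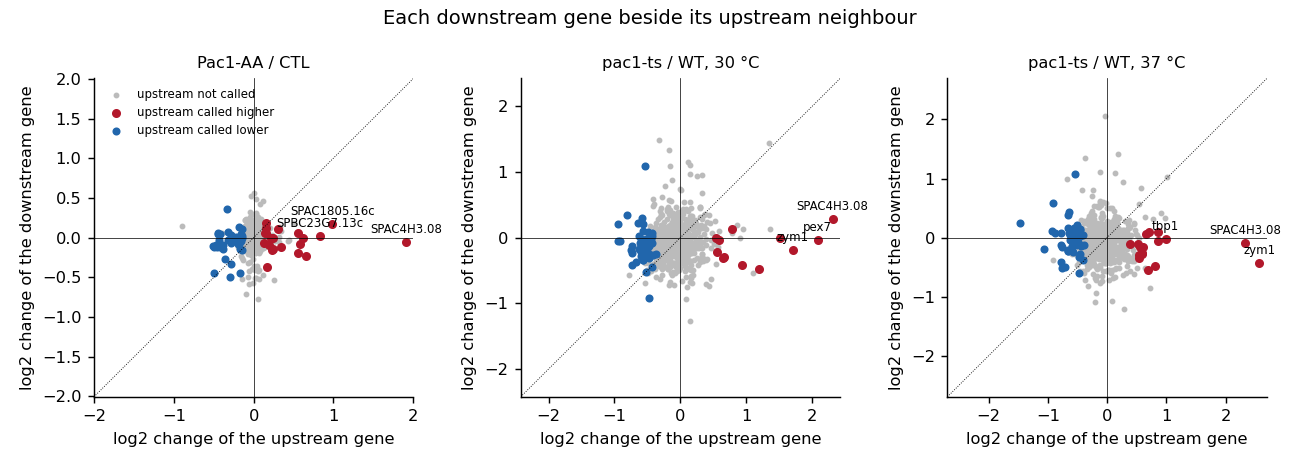
Log2 change of each downstream gene (y axis) against that of its upstream neighbour (x axis) in Pac1-AA over CTL, pac1-ts over WT at 30°C and pac1-ts over WT at 37°C, each point a tandem pair, with upstream genes called higher in red and called lower in blue. The red points lie along the horizontal line at 0 rather than on the dotted diagonal, and 0 of the 21, 12 and 17 downstream genes among them were called higher.

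The largest upstream rise was that of zym1, which encodes a metallothionein, a small metal-binding protein (chromosome I, 2381690 to 2382200). The zym1 RNA stood at 1192 and 1465 CPM in pac1-ts at 37°C against 224 in WT, at 55.3 and 50.8 in pac1-ts at 30°C against 16.3 in WT, and at 25.9 and 29.4 in Pac1-AA against 17.1 and 18.7 in CTL. At 37°C this was a log2 change of 2.57 ± 0.14 (SE) with an adjusted p of 4.93e-07 by edgeR. The member scd2, 269 bp further on, encodes the scaffold of the Cdc42 polarity complex (chromosome I, 2382470 to 2385153). It stood at 42.3 and 43.9 CPM in pac1-ts against 57.8 in WT at 37°C, and both clones were below WT, by a log2 change of −0.42 ± 0.085 (SE; edgeR adjusted p = 0.00486). At 30°C scd2 had 63.3 and 63.0 CPM in pac1-ts against 71.9 in WT, and in Pac1-AA it had 68.8 and 69.8 against 69.3 and 69.6 in CTL.

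SPAC4H3.08, annotated as a 3-hydroxyacyl-CoA dehydrogenase, was called higher in all 3 comparisons (chromosome I, 3841498 to 3843136). It reached 5268 and 5633 CPM in pac1-ts at 37°C against 1088 in WT, a log2 change of 2.32. At 30°C it had 49.7 and 60.2 CPM in pac1-ts against 11.1 in WT (2.31), and it had 31.8 and 33.5 CPM in Pac1-AA against 8.59 and 8.74 in CTL (1.91, adjusted p = 1.63e-07). SPAC4H3.09, a subunit of a type II fatty acid synthase by annotation, begins 229 bp after it. It had 39.1 and 37.0 CPM in pac1-ts against 40.7 in WT at 37°C, and both clones were slightly below WT. At 30°C SPAC4H3.09 had 49.97 and 42.4 CPM in pac1-ts against 38.1 in WT (log2 change 0.28, adjusted p = 0.113), and in Pac1-AA it had 87.8 and 84.9 against 92.5 and 87.4 in CTL.

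The pair with the shortest spacer among these, abp2 and naa35, showed the same pattern. abp2 encodes a protein that binds replication origins and naa35 a subunit of the NatC acetyltransferase. abp2 had 159 and 149 CPM in pac1-ts against 53.9 in WT at 30°C (log2 change 1.51, adjusted p = 1.25e-05), 121 and 114 in pac1-ts against 64.7 in WT at 37°C, and 86.5 and 86.9 in Pac1-AA against 58.2 and 57.8 in CTL. naa35, 29 bp downstream, had 166 and 149 CPM in pac1-ts against 158 in WT at 30°C, 154 and 149.8 in pac1-ts against 142 in WT at 37°C, and 119 and 119.8 in Pac1-AA against 123 and 128 in CTL. Its log2 changes of −0.0037, 0.10 and −0.075 had adjusted p = 0.985, 0.538 and 0.118.

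**Figure D4:**
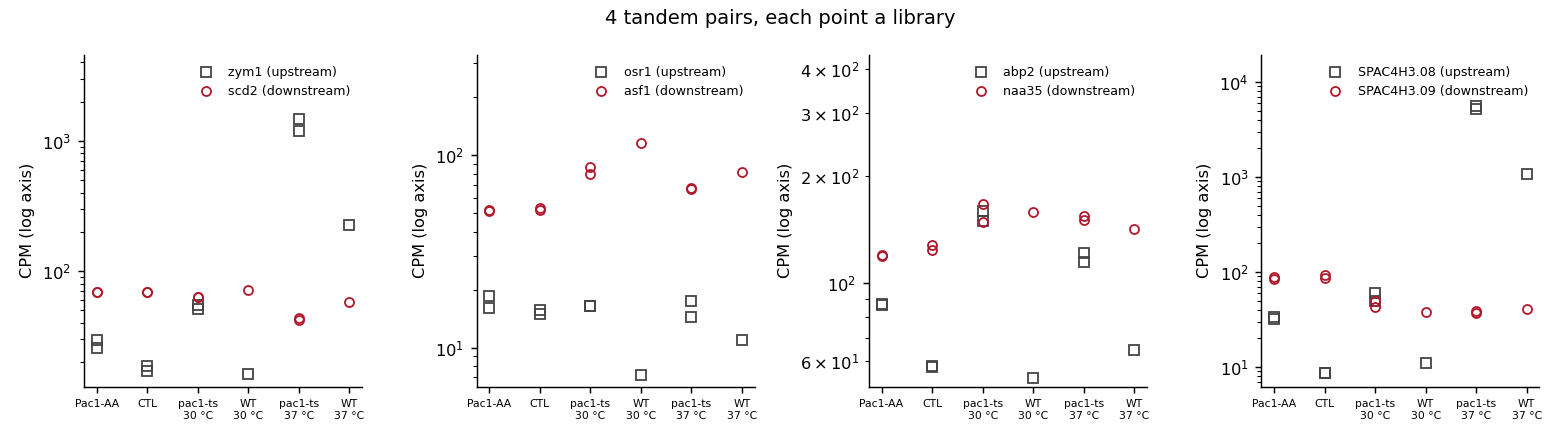
CPM on a log axis in each Pac1-AA, CTL, pac1-ts and WT library for 4 tandem pairs, upstream gene as squares and downstream member as circles. The squares of zym1, abp2 and SPAC4H3.08 are higher in the mutants in all 3 comparisons, while scd2, naa35 and SPAC4H3.09 stay near or below their controls, except SPAC4H3.09 at 30°C (49.97 and 42.4 CPM in pac1-ts against 38.1 in WT).

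At 30°C pex7, the receptor for a class of peroxisomal proteins, had 992 and 891 CPM in pac1-ts against 223 in WT (log2 change 2.08). Its downstream member cdc45, which encodes part of the replicative helicase and begins 96 bp on, had 54.3 and 60.5 CPM in pac1-ts against 58.7 in WT, with 1 clone on either side of WT. The dehydrogenase gene osr1 rose to 16.4 and 16.4 CPM in pac1-ts at 30°C, against 7.21 in WT, and asf1, the histone H3-H4 chaperone gene 141 bp downstream, fell to 87.0 and 79.3 CPM in pac1-ts against 116 in WT (log2 change −0.48, standard error 0.090, adjusted p = 0.00392). asf1 was the only downstream member called in either direction in such a pair at 30°C in the fit without a block.

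In Pac1-AA the 4 members that fell beneath a risen upstream gene were pcy1, aro2, rpl1901 and bio2. pcy1, a gene of phosphatidylcholine synthesis 52 bp after the acyl-CoA ligase gene pcs60, had 99.6 and 100.1 CPM in Pac1-AA against 117 and 118 in CTL (log2 change −0.24, adjusted p = 0.000334), while pcs60 had 485 and 495 in Pac1-AA against 295 and 325 in CTL. The largest upstream rise there after SPAC4H3.08 was that of SPAC1805.16c, a purine nucleoside phosphorylase gene, with 290.2 and 310.1 CPM in Pac1-AA against 139 and 162 in CTL. Its member pub2, a ubiquitin ligase gene 170 bp on, had 36.0 and 36.7 CPM in Pac1-AA against 30.3 and 33.8 in CTL, above both controls by a log2 change of 0.17 (adjusted p = 0.0537), short of the threshold. rpt6, a proteasome subunit gene 269 bp after the risen urea transporter gene SPBC23G7.13c, had 279 and 269.5 CPM in Pac1-AA against 275 and 267 in CTL.

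Across all tandem pairs the changes of the genes were hardly related. Pearson's r between the log2 changes of the downstream and the upstream gene was 0.040 in Pac1-AA (715 pairs), and over 722 pairs each it was 0.084 in the clones at 30°C and −0.030 at 37°C. In divergent pairs it was 0.23 (461 pairs), 0.19 and 0.32 (476 pairs each). These values describe genes of the same libraries, which share depth and scaling, and carry no test. Where the upstream gene was called lower, 6 of 44 members in Pac1-AA, 2 of 46 at 30°C and 2 of 48 at 37°C were also called lower, beside 7.46%, 6.30% and 6.29% of all genes. In divergent pairs this held for 16 of 39, 10 of 47 and 6 of 35 genes. Such divergent pairs can enter this count and the r above from both sides. The 6 members in Pac1-AA were the ribosomal protein genes rpl2102, rpl4301 and rpl1902, the mitotic inducer gene cdc25, pho1, which encodes a secreted acid phosphatase, and SPAPB18E9.05c.

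Of the members that did rise, SPAC2H10.01 had the largest change in Pac1-AA and in the clones at 30°C. It encodes a transcription factor by annotation (chromosome I, 5273012 to 5275983) and had 121 and 126 CPM in pac1-ts against 45.4 in WT at 30°C, 149 and 142 in pac1-ts against 71.9 in WT at 37°C, and 28.2 and 32.8 in Pac1-AA against 18.8 and 20.4 in CTL. The groups did not overlap, and the log2 changes were 1.44 (adjusted p = 1.44e-05), 1.02 (0.000107) and 0.63 (0.000583). Its upstream neighbour SPAC2H10.04, 176 bp away, was nearly silent, with 2.37 and 3.57 CPM in pac1-ts against 1.17 in WT at 30°C, and its log2 change of 1.34 had an adjusted p of 0.0485.

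The catalase gene ctt1, part of the oxidative stress response, was called higher in all 3 comparisons as well. It had 776 and 765 CPM in pac1-ts against 289.9 in WT at 37°C (log2 change 1.41, adjusted p = 3.31e-06), 192 and 181 in the clones against 112 in WT at 30°C (0.74), and 175 and 173 in Pac1-AA against 114 and 137 in CTL (0.46). Its upstream gene cox14 was called in none of the 3. meu18, a gene first known from its rise in meiosis, had log2 changes of 0.48, 1.35 and 0.36 over its controls at 30°C, at 37°C and in Pac1-AA, while its upstream gene ade7, of adenine synthesis, was called lower in Pac1-AA. SPAC2H10.01, ctt1 and meu18 were the only members called higher in all 3 comparisons without a block.

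The agreement between the mutants was partial. Pac1-AA and the clones at 30°C share no library, and 4 members were called higher in both: SPAC2H10.01, ctt1, meu18 and pep3, a ubiquitin ligase gene by annotation (22.2% of the 18 in Pac1-AA and 30.8% of the 13 in pac1-ts). Of the members called lower, 15 were shared (30.6% of 49 and 42.9% of 35), and 8 of these encode ribosomal proteins. With 37°C the shared members were 4 higher (22.2% of each) and 13 lower (26.5% of 49 and 24.1% of 54). The same overlap was not counted over all genes, so these shares do not show whether the members differ from other genes.

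Among the other members called higher past a log2 change of 1 in pac1-ts was caf5. caf5, a spermine transporter gene, had 40.6 and 35.9 CPM in pac1-ts against 17.9 in WT at 30°C (1.10, adjusted p = 0.000233) but 29.4 and 30.0 in pac1-ts against 30.1 in WT at 37°C. ecl2, a gene tied to chronological lifespan, did the opposite, with 2265 and 2488 CPM in pac1-ts against 1119 in WT at 37°C (1.09, adjusted p = 0.000115) and 1222 and 1174 in the clones against 1285 in WT at 30°C. SPAPB24D3.08c, an oxidoreductase gene, had a log2 change of 1.10 at 30°C and 0.54 at 37°C. tlh2, a RecQ helicase gene near a telomere, had only 14.4 and 17.2 CPM in pac1-ts against 7.47 in WT at 30°C, and since near-identical copies exist its counts are uncertain.

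The members with the largest falls in pac1-ts included hom3 and put2. hom3, the aspartate kinase that starts threonine and methionine synthesis, had 181 and 174 CPM in pac1-ts against 427 in WT at 30°C (−1.27, adjusted p = 4.06e-06), 253 and 254 in mutant clones against 419 in WT at 37°C, and 188 and 181 in Pac1-AA against 224 and 221 in CTL. put2, of proline breakdown, had log2 changes of −0.60 at 30°C, −1.07 at 37°C and −0.17 in Pac1-AA, all called. nrf1, a subunit of the vacuolar polyphosphate polymerase complex, had 42.0 and 38.5 CPM in pac1-ts against 85.8 in WT at 37°C (−1.09) and 234 and 239 in Pac1-AA against 298 and 308 in CTL (−0.36). The transporter gene SPBC887.17 had a log2 change of −1.22 at 37°C. In the fit of the temperatures together, 1 member (ecl2) had a more positive and 2 members (nrf1 and caf5) a more negative pac1-ts effect at 37°C than at 30°C, against a background of 0.907% and 0.357% of 6728 genes. With the clone as a block these counts were 13 and 10, beside 3.97% and 2.27% of all genes. Leaving out a replicate, as below, also raised the shares of all genes called in each direction. Leaving out pac1-ts libraries in the order 30°C replicate 1, 30°C replicate 2, 37°C replicate 1 and 37°C replicate 2 gave 4, 3, 6 and 6 members with a more positive effect and 4, 5, 16 and 7 with a more negative one.

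The 19 ribosomal protein genes among the members moved largely together in Pac1-AA. In Pac1-AA 18 of the 19 were called lower, with a median change of −0.47, beside −0.014 for all members tested. rpl401, the largest fall of the group, had 361 and 354 CPM in Pac1-AA against 573 and 602 in CTL (−0.72, adjusted p = 1.14e-06). In pac1-ts 8 were called lower and 1 higher at 30°C (median −0.45), and 5 lower and 1 higher at 37°C (median −0.40). The gene called higher was rpl39, with 480.2 and 572 CPM in pac1-ts against 236 in WT at 30°C, 312 and 372 in mutant clones against 158 in WT at 37°C, and, in the other direction, 576 and 582 in Pac1-AA against 794 and 723 in CTL. Several of these genes (rpl1901 and rpl1902, rps1001 and rps1002) are near-identical copies, between which the counts may be divided uncertainly.

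The anchor-away strains carry a torSE allele, whose gene the labels do not spell out, and both kinase genes tor1 and tor2 have a member downstream. hva22, which helps to shape the endoplasmic reticulum and lies 68 bp downstream of tor1, had 18.6 and 18.8 CPM in Pac1-AA against 13.0 and 12.4 in CTL (0.56, adjusted p = 0.000232), while tor1 had 406 and 388 in Pac1-AA against 392 and 400.3 in CTL. swi1, of the replication fork protection complex and 192 bp downstream of tor2, had 120.1 and 118 CPM in Pac1-AA against 117 and 118 in CTL. Another member, SPAC11D3.03c, 14 bp after SPAC11D3.04c, moved in opposite directions in the systems: 29.4 and 30.5 CPM in Pac1-AA against 49.4 and 52.5 in CTL (−0.77), and 12.6 and 13.1 in pac1-ts against 7.01 in WT at 30°C (0.87, adjusted p = 0.00964). SPAC11D3.03c is the lowest member in Pac1-AA, and its upstream gene overlaps mfs2, a transporter gene on the opposite strand. The mfs2 RNA had 410.2 and 411 CPM in Pac1-AA against 27.7 and 25.6 in CTL. In pac1-ts over WT mfs2 rose as well, by log2 changes of 3.49 at 30°C and 3.24 at 37°C. There SPAC11D3.03c was higher, by 0.87 and 0.81, so its direction did not follow that of mfs2. A link between these genes was not tested.

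Where the study lists the upstream gene as bound by Pac1, the members were also counted on their own. The list was drawn up by the authors from binding data not used here, and 12 members follow a listed gene. A gene is listed where it overlaps a locus associated with Pac1, so the listing does not give the strand. SPAC11D3.04c, the listed gene before SPAC11D3.03c, overlaps mfs2 on the opposite strand. In Pac1-AA 3 of the 12 were called lower (1 of them SPAC11D3.03c), beside 7.46% of all genes, and all lay between −0.77 and 0.085, with a median of −0.024. In pac1-ts cells 2 were called higher at 30°C, beside 3.63% of all genes (median −0.038, highest value 0.96), and 1 was called higher and 1 lower at 37°C, beside 5.80% and 6.29% (median −0.067). No test compared these counts with the background. pho1, whose upstream gene pho84 encodes a phosphate transporter, had 7596 and 6676 CPM in pac1-ts against 3667 in WT at 30°C (0.96, adjusted p = 0.00157) and 1784 and 1701 in Pac1-AA against 2124 and 2262 in CTL (−0.33), while pho84 had 2618 and 2642 in pac1-ts against 2388 in WT at 30°C and 3015 and 2899.9 in Pac1-AA against 3586 and 3634 in CTL.

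In the exonuclease experiment each strain has 1 library, so values are set side by side with no test, and all 3 comparisons share the WT library. A gene was counted as higher or lower past 1 on the log2 scale. In the library labelled Pnmt81-dis3, 103 of 723 members (14.2%) were higher than in WT and 123 (17.0%) lower, against a background of 26.4% and 17.6% of 6228 genes. Among divergent genes 16.2% were higher and 21.4% lower, and among distant genes 13.8% and 31.2%. In the library labelled Pnmt81-dhp1, 44 of 721 members (6.1%) were higher and 91 (12.6%) lower, against a background of 17.9% and 10.1% of 6180 genes, with 8.94% and 9.79% for divergent and 9.81% and 11.9% for distant genes. In the library labelled with both, 98 of 720 members (13.6%) were higher and 132 (18.3%) lower, against a background of 27.3% and 16.8% of 6267 genes, with 16.1% and 17.8% for divergent and 11.9% and 29.1% for distant genes.

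The members' medians differed from those of distant genes in these libraries in both directions. The median change of members was −0.10, −0.086 and −0.15 in the libraries labelled Pnmt81-dis3, Pnmt81-dhp1 and with both, against −0.37, 0.056 and −0.51 for distant genes. The members thus lay 0.27 and 0.36 above the distant genes in the first and last and 0.14 below them in the second. Divergent genes had medians of −0.12, −0.039 and −0.10, within 0.05 of the members in all 3. With library totals alone, the median of all genes moved to 0.40 in the library labelled Pnmt81-dhp1, and 93 members (12.9%) were then higher and 43 (5.96%) lower, against 25.3% and 5.55% of all genes.

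Change went with level. The genes were divided into 3 bins by their FPKM in the control libraries of the other experiments, so that the level and the change came from different libraries. Lowly expressed members had a median change of 0.15 in the library labelled Pnmt81-dis3, 0.14 in that labelled with both and 0.048 in that labelled Pnmt81-dhp1, and highly expressed members −0.65, −0.55 and −0.14. Divergent genes showed the same slope in the first, 0.40 in the low bin and −0.72 in the high bin, as did distant genes, 0.19 and −0.80. In the Pac1 comparisons members had medians of 0.028 in the low bin and −0.041 in the high bin in Pac1-AA, 0.027 and −0.16 in the clones at 30°C, and 0.016 and −0.15 at 37°C.

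**Figure D5:**
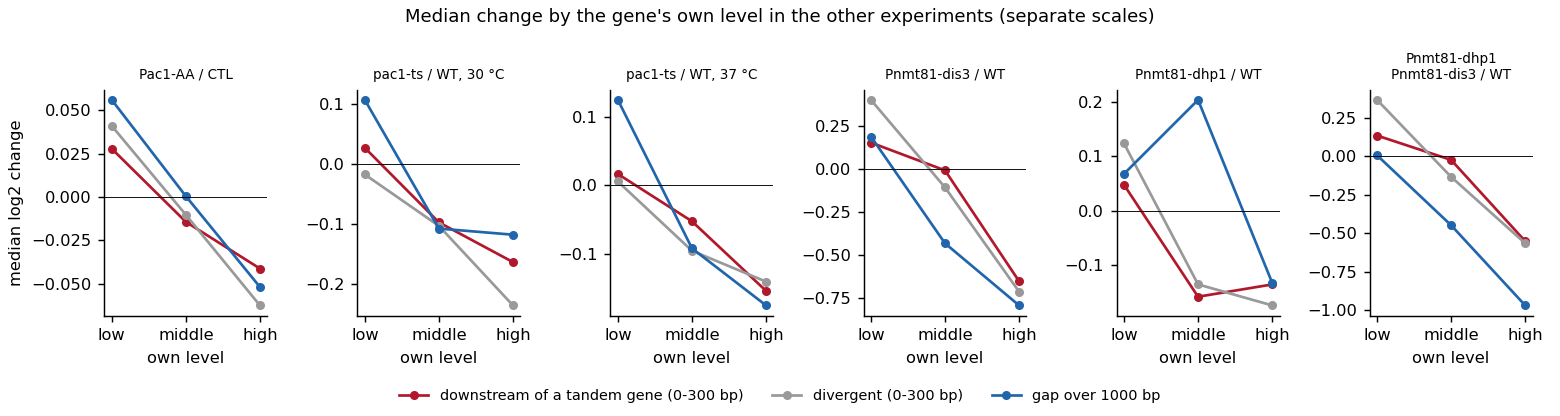
Median log2 change (y axis, a separate scale in each panel) of genes at low, middle and high level in the control libraries of the other experiments (x axis), for tandem, divergent and distant genes in 6 comparisons. In all but the panel labelled Pnmt81-dhp1, the medians of the tandem genes fall from the low to the high bin, for example 0.15, −0.0074 and −0.65 in the panel labelled Pnmt81-dis3.

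Members with a far more abundant neighbour were looked at apart. Of the 34 members whose upstream gene was over 10 times as abundant per length, 13 were higher in the library labelled Pnmt81-dis3, with a median of 0.64. Over all genes 26.4% were higher there, and of all members 14.2%. But the 41 divergent genes with such a neighbour had a median of 0.72, also with 13 higher. In the library labelled Pnmt81-dhp1 the medians were 0.30 for 33 members and 0.34 for 42 divergent genes. In that labelled with both they were 0.73 for 33 members and 0.31 for 42 divergent genes. There 13 of these members and 16 of these divergent genes were higher, beside 27.3% of all genes. In Pac1-AA the 38 such members had a median of 0.039 and the 40 divergent genes 0.055. In pac1-ts the 42 such members had medians of 0.022 at 30°C and 0.050 at 37°C, and the 44 divergent genes 0.080 and 0.10. The order of the gap bins differed between comparisons: from the shortest to the longest gaps, members had medians of −0.15, −0.098 and 0.031 in the library labelled Pnmt81-dis3, −0.0089, −0.082 and −0.16 in that labelled Pnmt81-dhp1, and −0.012, −0.012 and −0.018 in Pac1-AA.

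Members far above WT in the exonuclease libraries are described next. mcp3, a meiotic gene 82 bp after och1, stood at 334 CPM in the library labelled Pnmt81-dis3, 32.2 in that labelled Pnmt81-dhp1 and 352 in that labelled with both, against 21.9 in WT. Its log2 ratio in the first was 3.92 (95% counting interval 3.69 to 4.18). The upstream gene och1 had 593, 162 and 526 CPM in the same order, against 224 in WT, with log2 ratios of 1.40, −0.47 and 1.23. rec25, of meiotic recombination, whose spacer is printed above, had 172, 27.9 and 152 CPM in the same order, against 13.4 in WT, while its upstream gene dbr1, the lariat debranching enzyme, had 67.2, 99.6 and 58.6 against 75.3 in WT. meu32, 42 bp after the GTP cyclohydrolase gene rib1, had 41.7, 14.0 and 50.3 CPM against 2.63 in WT, and rib1 had 320.2, 174 and 205 against 227 in WT. In the rec25 and meu32 pairs the downstream gene was far above WT in the first and last library, and the upstream gene was within 0.50 of WT on the log2 scale in all 3. In the mcp3 pair both genes were above WT in these 2 libraries.

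The formin gene fus1, needed for mating, had 435 CPM in the library labelled Pnmt81-dis3 and 41.4 in that labelled Pnmt81-dhp1, against 28.4 in WT. ssm4, a meiotic dynactin subunit gene, had 674 and 49.97 CPM in these, against 49.6 in WT. In Pac1-AA the log2 changes of mcp3, rec25, meu32, fus1 and ssm4 were 0.052, −0.022, 0.30, 0.017 and −0.044, and none was called. In pac1-ts at 37°C fus1 was called higher, with 97.1 and 94.0 CPM against 67.5 in WT (log2 change 0.50, edgeR adjusted p = 0.00202). There mcp3, rec25 and ssm4 had log2 changes of 0.54, 0.26 and −0.24 and were not called. Values of meu32 in pac1-ts are not given here at either temperature, and nothing is said of its call. At 30°C mcp3, rec25, fus1 and ssm4 had 0.46, 0.45, 0.22 and −0.020, and none of these was called. The uncharacterized SPAC1687.08 had the largest ratio among members with at least 4 counts in WT, with 438, 62 and 636 counts in the libraries labelled Pnmt81-dis3, Pnmt81-dhp1 and with both, against 4 counts in WT (log2 ratio 6.30 in the first, interval 5.08 to 8.33). The retrotransposon Tf2-7 had 43 and 67 counts in the libraries labelled Pnmt81-dis3 and with both, against 0 in WT, at least 11.4-fold and 20.9-fold higher against a floor of 3 counts in that library. Tf2 copies are near-identical, and so is its neighbour Tf2-8, so its counts are uncertain.

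Among the largest falls was that of pho1, which had 42.9 CPM in the library labelled Pnmt81-dhp1, 301 in that labelled Pnmt81-dis3 and 126 in that labelled with both, against 639.8 in WT, and its upstream gene pho84 had 397, 2839 and 1129.9 against 4667 in WT. The pair was lower together, by log2 ratios of −3.90 and −3.56 in the library labelled Pnmt81-dhp1. asf1 had 159 CPM in that library against 959 in WT (−2.59), and the mitochondrial iron transporter gene mmt1 had 90.5, 76.0 and 79.2 CPM in the libraries labelled Pnmt81-dis3, Pnmt81-dhp1 and with both, against 727 in WT. Ribosomal protein genes among the members were higher in 0 and lower in 7 of 19 cases in each of the 3 libraries.

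Some upstream genes that rose in the Pac1 mutants were also above WT in the exonuclease libraries. osr1 had log2 ratios of 1.94 and 1.44 in the libraries labelled Pnmt81-dis3 and with both. In contrast zym1, pex7, pcs60, SPAC1805.16c and abp2 were above 1 in none of the 3 libraries. SPAC4H3.08, described next, stayed below 1 in the library labelled Pnmt81-dhp1 (log2 ratio 0.86). SPAC4H3.08 had 103, 14.9 and 81.3 CPM in the libraries labelled Pnmt81-dis3, Pnmt81-dhp1 and with both, against 8.19 in WT, and its member SPAC4H3.09 had 7.21, 13.7 and 14.5 against 18.9 in WT. SPBC23G7.13c had 6.51, 29.0 and 8.47 CPM against 1.17 in WT, where it had only 8 counts, and rpt6 210.2, 355 and 199 against 129 in WT. SPAC4H3.09 was below WT in all 3 libraries, whereas rpt6 was above WT in all 3 and past 1 in the library labelled Pnmt81-dhp1 (log2 ratio 1.46), where its upstream gene had the ratio 4.56.

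Pairs whose upstream gene was above 1 numbered 82 in the library labelled Pnmt81-dis3, and of their downstream members 15 were higher and 16 lower. In the library labelled Pnmt81-dhp1 there were 60 such pairs, with 4 members higher and 6 lower, and in that labelled with both 75, with 9 higher and 14 lower. In the same order, 26.4%, 17.9% and 27.3% of all genes were higher and 17.6%, 10.1% and 16.8% lower. Of all members, 14.2%, 6.1% and 13.6% were higher and 17.0%, 12.6% and 18.3% lower. Divergent pairs gave 8 higher and 13 lower of 73, 4 higher and 1 lower of 44, and 8 higher and 13 lower of 72. The median change of the tandem members in these pairs was −0.022, −0.19 and −0.18. Pearson's r over the tandem pairs was 0.087 (705 pairs), 0.094 (707) and 0.032 (703), beside 0.046 (462), 0.17 (465) and −0.010 (464) over the divergent pairs, as a description of single libraries.

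Of a list of 24 genes of cleavage, termination and RNA decay, all measured, pac1 alone was called higher in Pac1-AA, beside 4.55% of all genes, and the median of the 24 was −0.027. In pac1-ts cells at 30°C 2 were called lower (pac1 and the exosome subunit gene rrp41), beside 6.30% of all genes. The median change of the 24 there was −0.16, beside −0.0055 for all genes, and at 37°C it was −0.046, beside 0.0043. In the library labelled Pnmt81-dis3 5 were above 1 (dhp1, ppn1, rrp6, mtr4 and cid14) and 2 below, and in the library labelled Pnmt81-dhp1 1 was above (yth1) and 1 below (rrp41). The library labelled with both had 4 above and 5 below. Over all genes 26.4%, 17.9% and 27.3% were above 1 in these 3 libraries and 17.6%, 10.1% and 16.8% below. Of a list of 20 stress genes, 6 were called higher and 1 lower in Pac1-AA, 3 higher in the clones at 30°C, and at 37°C 7 higher and 2 lower, with zym1 and ctt1 among those called higher in all 3. Over all genes 4.55%, 3.63% and 5.80% were called higher and 7.46%, 6.30% and 6.29% lower. Among the members, ctt1, psi1 and ssa2 belong to that list.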

How the data were processed

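Fragments per gene were measured in 14 RNA-seq libraries (paired-end, hot-acid phenol RNA). The table deposited by the authors holds raw counts per gene, made by trimming with Trimmomatic, mapping with HISAT2 to ASM294v2 and strand-specific counting with featureCounts (per the methods and labels; versions are not given in the sources used here). By that tool's default, a fragment on both genes of a pair is counted on neither. A Zymo-Seq RiboFree kit was used for pac1-ts and matched WT RNA, and TruSeq Stranded after RiboZero for the others, and experiments were analysed separately. Gene lengths in the same table served for FPKM. 0 columns of sample values were left unmapped.

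Members were chosen from gene positions in the table. The members and all lists were chosen with earlier results of these data known, and the pairs shown, the pairs moving in opposite directions, SPAC11D3.03c, the RefSeq-gap and the ribosomal alternatives were chosen after values were seen. RefSeq (ASM294v3) gave gene names, biotypes and sequences, and 6844 of 7049 genes matched it. AATAAA was searched on both strands.

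The count tests used edgeR 4.0.16 in R 4.3.3 (quasi-likelihood with TMM factors). Low genes were removed by filterByExpr at 10 counts, and p-values were adjusted by Benjamini and Hochberg's method over all genes tested, which were 6328 for the anchor-away libraries and 6728 for the joint fit of all pac1-ts and matched WT libraries. A gene was called at an adjusted p below 0.01, with or without a log2 change above 1. Exonuclease libraries, with 1 each, were compared as log2 ratios with a pseudocount of 0.5, among genes with at least 10 counts in a library of the comparison, and their 95% intervals cover counting error only. The scripts were tested on simulated counts. The replicates are separate samples per the labels, and nothing states that they are separate cultures, so p-values may measure technical spread. No pair of libraries agreed within sampling noise. The pac1-ts clones were sequenced at both temperatures, and libraries of the same clone deviated together (correlation 0.53), so the clone was fitted as a block in an alternative. The other alternatives were DESeq2 1.42.0, other scaling, filters, thresholds, gap limits and leaving out each replicate.

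Named members were, per comparison, up to 10 called higher and 10 called lower with the largest changes and no overlap between groups, those with a shared call in Pac1-AA and the clones at 30°C, those called together with their upstream gene in one direction, those next to an edited gene, and per exonuclease library the 8 largest rises and 4 largest falls among members with at least 50 counts.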

Additional observations from a re-analysis of the deposited data

Results flagged for a closer look

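In 3 members the pac1-ts effect differed between the temperatures in the fit that tested this difference directly. The effect of pac1-ts over WT on nrf1 was lower at 37°C than at 30°C by a log2 difference of −0.953, and that on caf5 by −1.12, while that on ecl2 was higher by 1.19. In each case both clones lay on one side of WT at the temperature with the larger effect. With 1 WT library per temperature, the WT value at either temperature rests on a single library, and the cause was not tested.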

How the results depend on the processing

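The call at a log2 change above 1 was set by the size of the changes. Without that condition Pac1-AA had 18 members higher and 49 lower, the pac1-ts clones 13 and 35 at 30°C, 18 and 54 at 37°C, and 2 more negative at 37°C than at 30°C. At 0.5 these counts were 3 and 10, 11 and 25, 17 and 38, and 2. With gaps of 0 to 150 bp (370 members), 1 was higher and 0 lower at 30°C, 2 and 0 at 37°C, and 0 more negative at 37°C than at 30°C. With the same gaps 57 were higher and 66 lower in the library labelled Pnmt81-dis3, 24 and 47 in that labelled Pnmt81-dhp1, and 52 and 64 in that labelled with both. With a RefSeq gap of 0 to 300 bp, which was tried after values had been seen, 1 was higher and 0 lower at 30°C, 3 were higher at 37°C, and 0 differed between temperatures in either direction. With library totals alone 93 were higher and 43 lower in the library labelled Pnmt81-dhp1, and 2 were more negative at 37°C. With an upstream neighbour of under 5 exons 0 were more negative at 37°C, and with members of any exon number 2 were more positive. Against 71 genes with a gap over 2000 bp, the difference in medians was −0.126 at 30°C, −0.0973 at 37°C, 0.0143 in the library labelled Pnmt81-dhp1 and 0.503 in that labelled with both.

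With each replicate left out in turn, the difference in medians from distant genes in Pac1-AA ranged from −0.0186 to −0.0058 (−0.0058 without CTL replicate 1), 3 to 6 members were higher and 3 to 5 lower at 37°C, and 1 to 2 were more negative at 37°C than at 30°C. Where a group was left with 1 library, that library was assumed to vary like the others. Leaving out the ribosomal protein genes moved none of these counts or medians past the limits used. With the clone as replicate block, the fit at a log2 change above 1 gave 7 higher and 1 lower at 30°C and 5 and 3 at 37°C. For the anchor-away libraries the numbers do not pair cultures (correlation of deviations 0.083). That block gave 42 higher and 86 lower without the condition on size, beside 9.73% and 12.3% of all genes. Of the values recomputed for single genes, 945 kept their direction and call, 55 lost the call and 0 reversed. Depth limits the exonuclease libraries most, with 1 library each and a floor of up to 0.439 CPM for 3 counts.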
